A study of Mus musculus with 30 samples.

Results

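Nuclear RNA-seq was examined for 10 genes that encode subunits of the Polycomb repressive complexes, taken from a fixed list of symbols among the 55401 gene identifiers counted in mouse embryonic stem cells (mESCs). The list holds the PRC2 core genes Ezh2, Suz12 and Eed, the PRC2 accessory genes Jarid2, Mtf2 and Phf19, and the PRC1 genes Ring1, Rnf2, Pcgf6 and Cbx7. All 10 symbols were found in each of the 4 count tables, which together hold 30 libraries of 15 conditions with 2 replicates each.

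SYAT cells are a CGR8-derived mESC line in which both alleles of the gene for SRCAP, the catalytic subunit of the complex that loads the histone variant H2A.Z, carry YPet-AID, and which expresses OsTir1 so that the auxin IAA triggers degradation of SRCAP. The control was kept in auxinole, an inhibitor of Tir1. Treated cells received 500 µM IAA, and the time points were 2, 4, 6 and 8 h. Parental CGR8 cells, which carry no degron, were left untreated or received IAA for 4 h. SYAT cells were also sorted in early G1 (EG1) or late G1 (LG1) with or without 1 h of IAA, using DNA content and a mitotically degraded mCherry reporter. In the last table, SYAT cells expressed wild-type SRCAP-mCherry (wtSRCAP) or a catalytically dead form (cdSRCAP) after 24 h of doxycycline. Each form came from a single clone, sorted for similarly high mCherry, and was kept in auxinole or treated with IAA for 4 h. Routine culture was in serum and LIF with added inhibitors (2i), and the cells were moved to serum and LIF without these inhibitors before the experiments.

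PRC2 places methyl groups on lysine residues of histone H3 at silent developmental genes, with EZH2 as the enzyme and SUZ12 and EED as the scaffold and reader it cannot work without. Accessory subunits such as JARID2, MTF2 and PHF19 help to bring PRC2 to CpG-rich promoters. PRC1 ubiquitinates histone H2A through RING1 or RNF2 (RING1B), paired with a PCGF protein such as PCGF6 in variant complexes, whereas canonical complexes read the PRC2 mark through a CBX protein, of which CBX7 is the main one in mESCs. Together they hold lineage genes silent in pluripotent cells.

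The promoters of the members are CpG-rich. In 12 RefSeq promoter windows of the 10 genes, each covering the 250 bases before a transcription start on GRCm38.p6, the number of CG dinucleotides ran from 2 to 37 with a median of 23, against a median of 6 over 32851 mouse promoters. The 2 belongs to a downstream start of Mtf2, and GC content ran from 46.8% to 75.2%. Motifs were searched on both strands, and in these windows no match of a motif overlapped a match of another. An E2F motif (TTTCCCGC or TTTGGCGC, in 1.30% of all promoters) was found for Suz12 and Phf19. An NRF1 motif (GCGCNTGCG, in 5.19%) was found for Ezh2 and Pcgf6, and the NFY motif CCAAT (in 33.8%) in 5 windows, those of Ezh2, Suz12, Jarid2, Cbx7 and the downstream start of Mtf2. A YY1 motif (AAGATGGCG, in 0.606%) was found for Phf19, and an ETS motif (CCGGAAGT, in 2.88%) in none of the 12. A match of letters is no evidence that a factor binds.

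Shown here are the promoters of Suz12, which varied most closely with Ezh2 across the time course, and of Jarid2 and Pcgf6, the genes with the smallest unadjusted p among the members after 6 h of IAA. Capitals mark the E2F, NFY and NRF1 motifs. None of the 3 windows holds an annotated exon of its own gene, and exons of other genes were not checked. Suz12 lies on chr11:79992856-79993105, plus strand, with its E2F motif starting 219 bases and its CCAAT 61 bases before the start. The Jarid2 window shown lies on chr13:44730524-44730773, plus strand, with a CCAAT 179 bases before the start. A further Jarid2 window, chr13:44731021-44731270, holds none of the searched motifs. Pcgf6 lies on chr19:47050907-47051156, minus strand, with an NRF1 motif 16 bases before the start.
Suz12: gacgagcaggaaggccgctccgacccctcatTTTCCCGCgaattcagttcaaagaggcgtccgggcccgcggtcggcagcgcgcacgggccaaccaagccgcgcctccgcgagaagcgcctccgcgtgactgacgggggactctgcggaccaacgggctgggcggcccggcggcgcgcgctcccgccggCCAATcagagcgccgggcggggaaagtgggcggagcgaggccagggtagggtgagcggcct
Jarid2: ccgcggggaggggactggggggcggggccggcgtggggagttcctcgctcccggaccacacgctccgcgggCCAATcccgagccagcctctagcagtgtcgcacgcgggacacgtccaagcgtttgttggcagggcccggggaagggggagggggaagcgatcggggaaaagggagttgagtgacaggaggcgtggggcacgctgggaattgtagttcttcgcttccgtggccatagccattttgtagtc
Pcgf6: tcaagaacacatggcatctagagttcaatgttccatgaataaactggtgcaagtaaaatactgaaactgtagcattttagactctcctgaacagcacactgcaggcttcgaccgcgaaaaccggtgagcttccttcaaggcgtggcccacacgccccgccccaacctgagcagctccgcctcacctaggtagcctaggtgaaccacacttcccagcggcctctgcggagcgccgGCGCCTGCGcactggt

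Counts on exons summed to between 17540823 and 22873893 per library in the SYAT time course, 45617992 and 60214521 in CGR8 cells, 19740778 and 26672402 in sorted cells, and 12236493 and 26369773 in wtSRCAP and cdSRCAP cells. Levels are given as CPM, the share of a library's counts that fall on a gene, scaled to a fixed total after TMM scaling of the library size. The 8 ES cell marker genes, among them Pou5f1, Sox2 and Nanog, summed to 1508 to 4162 CPM in every library. The 6 fibroblast or feeder markers summed to 5.12 to 46.8 CPM, with Postn at 0 counts in all 30 libraries, and the 6 extra-embryonic endoderm markers to 5.35 to 24.99 CPM. Srcap itself gave 40.3 to 63.5 CPM (before TMM scaling) in the SYAT time course, which does not check the treatment because IAA acts on the protein. In the SYAT exons, the replicates after 6 h of IAA stood furthest apart (SD of the log2 difference 0.779, against 0.450 to 0.669 in the other conditions), so the exon values of the members at 6 h are also given with each of these libraries left out. The study's methods call the replicates biological duplicates.

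Per length, the members covered a 60.1-fold range in the SYAT control. Levels were computed as RPKM, the CPM divided by the merged exon length in kb. Jarid2 was highest at 73.8 ± 10.4 RPKM (SD, n = 2), followed by Suz12 at 49.0 ± 6.39, Mtf2 at 26.6 ± 4.52, Eed at 25.7 ± 4.46, Rnf2 at 19.99 ± 1.05, Cbx7 at 18.9 ± 2.06, Ezh2 at 15.5 ± 1.29 and Pcgf6 at 12.4 ± 0.454 RPKM. Ring1, which encodes the alternative E3 ligase to RNF2, had 2.73 ± 0.433 RPKM, and Phf19 had 1.23 ± 0.0674 RPKM. The libraries of Mtf2 and Eed overlapped, as did those of Rnf2 and Cbx7, and the other neighbours in this order did not. With the longest transcript in place of the merged exons, Ezh2 stood at 37.0 RPKM, Eed at 47.7 and Pcgf6 at 22.1, so the order in the middle depends on which isoform length is used, while Jarid2 (85.8), Suz12 (55.4), Ring1 (3.46) and Phf19 (1.65) kept their places.

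In the other control groups Jarid2 again had the highest mean per length. It stood at 110 RPKM in CGR8 cells, 41.2 in EG1, 48.9 in LG1, 120 in wtSRCAP and 130 in cdSRCAP cells. Suz12 had the next mean in all of them, from 34.5 RPKM in cdSRCAP to 57.03 in CGR8 cells. In EG1 the libraries of Jarid2 (35.8 and 46.6 RPKM) and Suz12 (36.2 and 38.3) overlapped, as did those of Suz12 and Eed in cdSRCAP cells. Ring1 and Phf19 were the lowest pair throughout. Ring1 and Phf19 took opposite places in CGR8 cells, with 3.11 RPKM for Ring1 and 3.63 for Phf19, and their libraries overlapped there. The tables were normalized separately, so levels of the same gene in different tables are set side by side without a test.

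**Figure D1:**
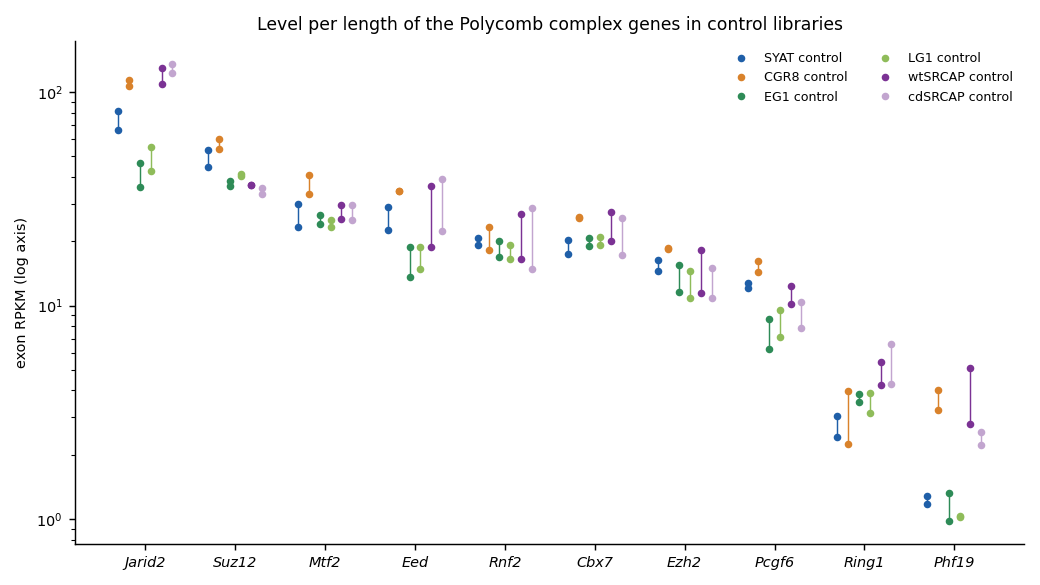
Exon RPKM on a log axis of the 10 genes in the control libraries of each cell population. Each point is a library and the line joins the 2 replicates. By the mean, Jarid2 lies at the top and Ring1 and Phf19 at the bottom in all 6 groups. The libraries of Jarid2 and Suz12 overlap in EG1.

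The time course asks how expression responds to loss of SRCAP. None of the 10 members was called up- or downregulated in exons after 2, 4, 6 or 8 h of IAA, with a call defined as an absolute log2 fold change over 0.5 and an adjusted p under 0.05 in edgeR's quasi-likelihood test. By the same rule 0% of the 19205 tested genes were called at 2 h, 0% at 4 h, 0.0677% at 6 h and 0.00521% at 8 h. At an unadjusted p under 0.05, where 3.92%, 9.09%, 16.1% and 13.6% of all genes lay, the members numbered 0, 0, 2 and 0. DESeq2 called none of the members either, at any time. With the replicate number as a block, Jarid2 was called at 6 h and no other member at any time. The genes called over the whole table then went from 0, 0, 13 and 1 to 0, 76, 823 and 634. Without the filter on low counts Jarid2 was called at 6 h too, where 885 genes were called over the whole table. All 4 time points share the same 2 control libraries. Here and below, the share of all genes whose groups do not overlap was not computed. With 2 libraries per group, a gap between groups is therefore a description and no sign of a response.

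Among the core genes of PRC2, Ezh2, the methyltransferase, had 97.2 and 109 CPM in the control libraries. With IAA it had 110 and 122 CPM at 2 h, 111 and 123 at 4 h, 106 and 111 at 6 h, and 110 and 113 at 8 h. The groups at 6 h overlap with the control, and those at the other times lie just above it. Its log2 fold changes were 0.17, 0.18, 0.08 and 0.12 at 2, 4, 6 and 8 h, with adjusted p from 0.743 to 1.00. The 95% interval at 8 h ran from -0.16 to 0.40.

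Suz12, the scaffold subunit, ranged from 220 to 296 CPM over the 10 libraries, with log2 fold changes of 0.19, 0.16, 0.07 and 0.09 and overlap with the control at each time. Eed, which reads the PRC2 mark, ranged from 86.5 to 136 CPM. Its log2 fold changes were 0.22, 0.28, 0.02 and 0.24, and only the 8 h libraries (115 and 117 CPM) lay above both control libraries (86.5 and 111 CPM).

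Jarid2, the accessory subunit that links PRC2 to the mark of PRC1, had 645 and 788 CPM in the control libraries. With IAA, the libraries held 711 and 862 CPM at 2 h, 833 and 939 at 4 h, 870.5 and 1286 at 6 h, and 856 and 915 at 8 h. From 4 h on, both treated libraries lay above both controls, and replicate 2 at 6 h stood far above all others. The log2 fold change was 0.13 at 2 h, 0.31 at 4 h, 0.59 at 6 h (standard error, SE, 0.19, unadjusted p = 0.0122, adjusted p = 0.189 from edgeR) and 0.31 at 8 h. In the fit with the replicate block the value at 6 h was 0.58 (adjusted p = 0.0435 from edgeR), which passed the rule for a call. However, the deviations of same-numbered control and 6 h libraries from their group means correlated at only -0.04 in exons. Without replicate 2 of the 6 h treatment the value at 6 h was 0.28.

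Mtf2, a Polycomb-like protein that binds CpG-rich DNA, ranged from 128 to 177 CPM and its treated libraries overlapped with the control at each time, with log2 fold changes from -0.15 at 6 h to 0.11 at 2 h. Phf19, a related Polycomb-like gene with few counts (103 to 203 per library), had 6.4 and 5.9 CPM in the controls, 5.6 and 6.9 at 2 h, 7.0 and 8.4 at 4 h, 6.6 and 12.5 at 6 h, and 6.4 and 6.1 at 8 h. The log2 fold change of Phf19 at 6 h was 0.62 (95% interval -0.03 to 1.28, adjusted p = 0.331), and 0.10 without replicate 2.

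Among the PRC1 genes, Rnf2, the main E3 ligase, had 79.4 and 85.5 CPM in the control. With IAA it reached 91.5 and 96.6 CPM at 2 h, 102 and 105 at 4 h, 105 and 56.9 at 6 h, and 110 and 98.4 at 8 h. The value of 56.9, in replicate 2 at 6 h, was the lowest of the 10 libraries, whereas the other treated libraries lay above both controls. Its log2 fold changes were 0.19, 0.33, -0.03 and 0.34, with an adjusted p of 0.561 at 8 h, and without replicate 2 the value at 6 h was 0.35 (adjusted p = 0.270). Ring1, the alternative ligase, ranged from 6.6 to 11.5 CPM with log2 fold changes of -0.05, -0.33, 0.11 and -0.23.

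Pcgf6, the PCGF subunit of a variant PRC1 that acts on germline genes, had 60.8 and 64.1 CPM in the control libraries. The treated libraries held 63.2 and 71.9 CPM at 2 h, 68.2 and 74.7 at 4 h, 69.8 and 107 at 6 h, and 75.8 and 81.3 at 8 h. The treated libraries lay above both controls from 4 h on. The log2 fold change was 0.11, 0.19, 0.50 (SE 0.19, unadjusted p = 0.0229, adjusted p = 0.232 from edgeR) and 0.33, and at 6 h it was 0.16 without replicate 2. Cbx7, the chromodomain subunit of canonical PRC1, ranged from 113 to 177 CPM, with log2 fold changes from 0.10 to 0.28 and overlap with the control at each time.

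**Figure D2:**
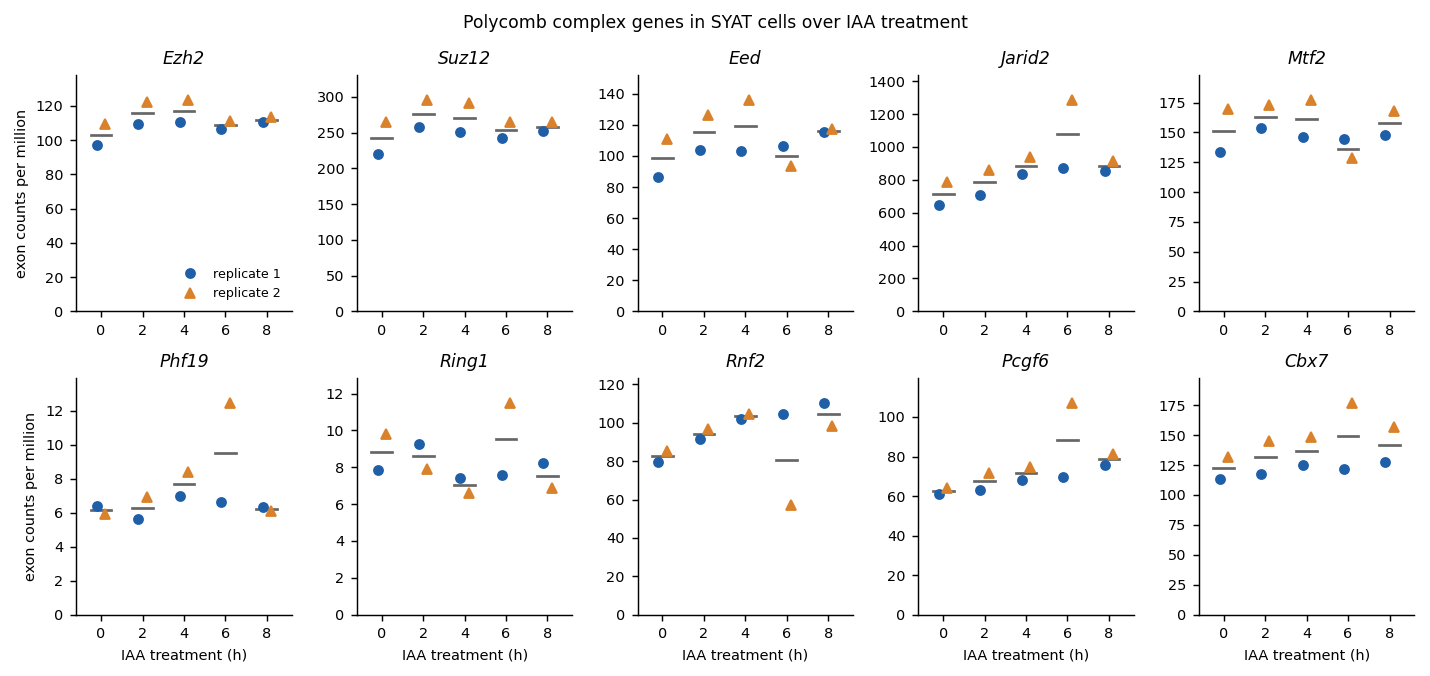
Exon CPM of the 10 genes in SYAT cells at 0 h (auxinole control), 2, 4, 6 and 8 h of IAA, with a circle for replicate 1, a triangle for replicate 2 and a bar for their mean. At 6 h replicate 2 lies high for Jarid2, Phf19, Ring1, Pcgf6 and Cbx7 and low for Rnf2.

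The 6 h comparison rests on which of its libraries is used. With replicate 2 as the only 6 h library, Jarid2 had a log2 fold change of 0.85, Phf19 1.02, Pcgf6 0.78 and Rnf2 -0.53. With replicate 1 as the only one, these genes had 0.28, 0.10, 0.16 and 0.35. Without replicate 1 and without replicate 2, in that order, Ezh2 had 0.11 and 0.04, Suz12 0.13 and 0.00, and Eed -0.07 and 0.11. Mtf2 had -0.23 and -0.07, Ring1 0.38 and -0.22, and Cbx7 0.53 and -0.01. Rnf2, Eed, Ring1 and Cbx7 thus differed in sign between these libraries. In such a fit, the lone library is assumed to vary like the other groups, so calls from it are not counted here.

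Over the 10 members, the median exon log2 fold change was 0.12, 0.19, 0.09 and 0.16 at 2, 4, 6 and 8 h, against 0.00, 0.02, 0.01 and 0.03 over all genes tested. At 6 h it was 0.26 without replicate 1 and 0.07 without replicate 2. The members above 0 numbered 9, 9, 8 and 9 of 10, against 50.6%, 52.4%, 50.9% and 53.2% of all genes. These medians are small beside the intervals of the single genes. All 10 intervals at 2, 4 and 8 h lay within a log2 change of 1 in either direction, as did 8 of 10 at 6 h, where those of Jarid2 and Phf19 reached 1.02 and 1.28.

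Across the 10 libraries of the time course, the pair of members with the most similar log2 CPM was Ezh2 and Suz12 (Pearson correlation 0.97), followed by Jarid2 and Pcgf6 (0.95). The least similar pair was Ring1 and Rnf2 (-0.78), and Phf19 and Ring1 (-0.71) without replicate 2 of 6 h. These are descriptions, since the libraries share conditions and scaling. Without replicate 2 of 6 h, Ezh2 and Suz12 remained the closest pair (0.97 over 9 libraries), followed by Ezh2 and Eed (0.95). Jarid2 and Pcgf6 then had 0.88, and Ring1 and Rnf2 had -0.48.

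CGR8 cells control for effects of IAA that do not need the degron. No member was called in exons after 4 h of IAA (0.00988% of 20250 genes were). At an unadjusted p under 0.05, where 9.16% of all genes lay, there were 3 of the 10 members. Rnf2 had 74.8 and 96.1 CPM in the control and 109 and 132 after IAA, which is 0.50 on the log2 scale (SE 0.17, adjusted p = 0.540). With the replicate number as a block, Rnf2 was called (0.50, adjusted p = 0.0264 from edgeR) and no other member. The genes called over the whole table then went from 2 to 500. The deviations of same-numbered libraries from their group means correlated at 0.07 in these exons. Mtf2 went from 190 and 234 CPM to 262 and 300 (0.41, adjusted p = 0.540), and Eed from 132 and 132 CPM to 155 and 187 (0.38, adjusted p = 0.540). For these genes the treated libraries lay above both controls. Ring1 had 12.9 and 7.3 CPM in the control and 7.4 and 6.5 after IAA, with a log2 fold change of -0.53 (95% interval -1.18 to 0.11). Ezh2 had -0.06, Suz12 0.15, Phf19 0.06 and Cbx7 -0.17.

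Jarid2 and Pcgf6, the genes with the smallest p in SYAT cells at 6 h, had log2 fold changes of 0.08 (95% interval -0.20 to 0.35) and -0.09 (-0.41 to 0.24) in CGR8 cells at 4 h, beside 0.31 (-0.12 to 0.73) and 0.19 (-0.22 to 0.61) in SYAT cells at 4 h. Rnf2 had 0.50 (0.11 to 0.88) in CGR8 and 0.33 (-0.18 to 0.83) in SYAT cells. The intervals of both cell lines overlap for each of these genes, and the difference was not tested because the tables were normalized separately. Without replicate 2 of the CGR8 control, Rnf2 had 0.70, Mtf2 0.57 and Ring1 -0.89, in a fit with 1 control library whose calls are not counted here.

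**Figure D3:**
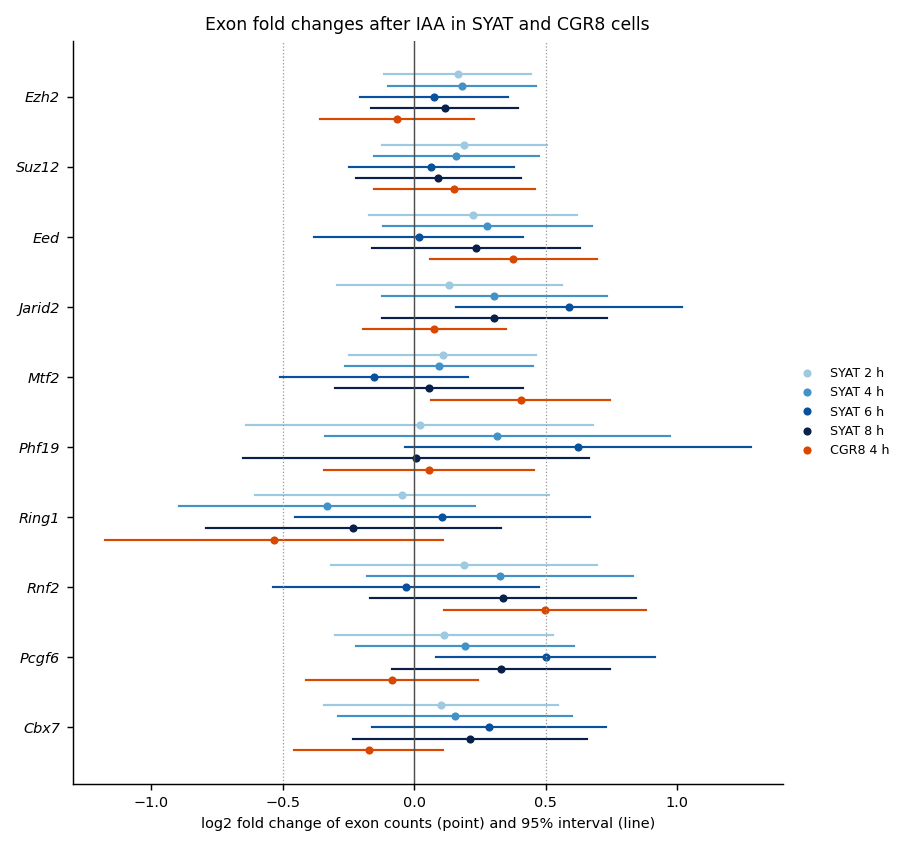
Exon log2 fold changes (points) with 95% intervals (lines) of the 10 genes after 2, 4, 6 and 8 h of IAA in SYAT cells and after 4 h in CGR8 cells. Dotted lines mark an absolute log2 fold change of 0.5; the intervals that leave out 0 are those of Jarid2 and Pcgf6 at 6 h in SYAT cells and of Eed, Mtf2 and Rnf2 in CGR8 cells.

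EG1 cells lose SRCAP during mitosis and LG1 cells during G1, and the question was whether 1 h of IAA changes their transcripts. In exons no member passed an absolute log2 fold change over 0.25 with an unadjusted p under 0.05, the rule the study used for sorted cells, nor the rule with an adjusted p. By the rule for sorted cells 0.19% of 21020 genes were higher and 1.03% lower in EG1, and 0.285% were higher and 0.733% lower in LG1. The members' log2 fold changes ran from -0.18 (Ring1) to 0.15 (Pcgf6) in EG1 and from -0.18 (Ring1) to 0.18 (Phf19) in LG1. The PRC2 core genes Ezh2, Suz12 and Eed had -0.02, 0.02 and 0.04 in EG1 and 0.10, 0.05 and 0.12 in LG1. Mtf2, Rnf2 and Cbx7 had 0.03, 0.02 and 0.07 in EG1 and 0.02, 0.00 and 0.10 in LG1. Jarid2 had 0.08 in EG1 and 0.18 in LG1, Phf19 0.12 in EG1 and Pcgf6 0.08 in LG1. All 10 intervals in both phases lay within a log2 change of 1, the widest bounds being -0.61 for Ring1 and 0.76 for Jarid2, both in LG1.

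Jarid2 had 347 and 453 CPM in EG1 control and 355 and 488 after IAA, and 415 and 536 CPM in LG1 control and 446 and 628 after IAA. The replicates of each group were further apart than the groups. LG1 control against EG1 control gave 0.25 for Jarid2 (95% interval -0.33 to 0.83) and values from -0.17 (Phf19) to 0.16 (Pcgf6) for the others. Only Suz12 had no overlap between the phases, with 179 and 189 CPM in EG1 and 199 and 205 CPM in LG1 (0.13, interval -0.16 to 0.43). The response in LG1 minus that in EG1 ran from -0.06 for Pcgf6 to 0.12 for Ezh2, and the smallest unadjusted p among the members was 0.717. With the replicate number as a block, no member was called in exons in these 4 comparisons either, while the genes called over the whole table went from 0 to 2 in EG1, 1 in LG1 and 152 between the controls.

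**Figure D4:**
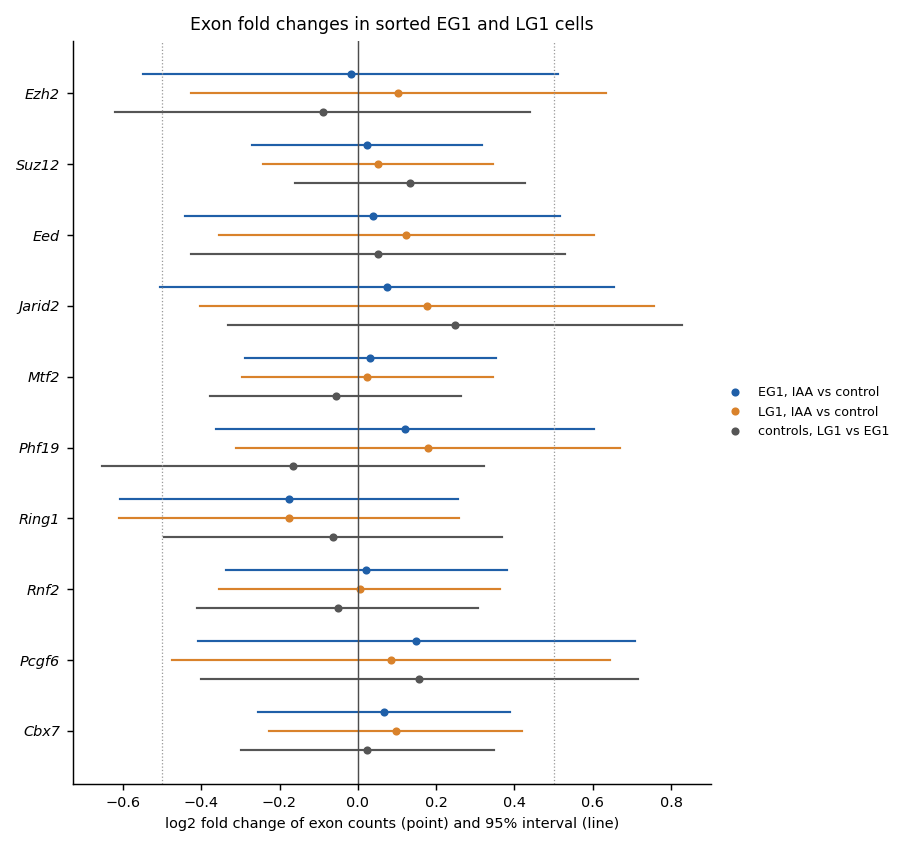
Exon log2 fold changes (points) with 95% intervals (lines) of the 10 genes after 1 h of IAA in EG1 and in LG1 cells, and between the controls of both phases. Every interval crosses 0 and lies within a log2 change of 1.

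wtSRCAP and cdSRCAP cells ask whether the response to IAA depends on the catalytic activity of SRCAP. No member was called in exons in either line, between the lines, or in the difference of their responses. By the same rule 0.00523% of 19111 genes were called after IAA in wtSRCAP cells and 0% in cdSRCAP cells, and 0%, 0.00523% and 0% between the controls, between the IAA groups and in the difference of responses. At an unadjusted p under 0.05 the members numbered 0 in wtSRCAP and 1 in cdSRCAP cells after IAA (7.4% and 5.64% of all genes), and 0 in each of the other 3 comparisons (3.82%, 5.03% and 0.785%). With the replicate number as a block, which pairs libraries that deviate together in these exons, Phf19 was called in both lines after IAA, and the genes called over the whole table went from 1 to 612 in wtSRCAP and from 0 to 345 in cdSRCAP cells, from 0 to 174 between the controls and from 1 to 269 between the IAA groups. The replicates were far apart for several members. Eed, Ezh2 and Rnf2 were higher in replicate 2 than in replicate 1 in all 4 groups, and Phf19, Ring1 and Cbx7 were lower.

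Eed had 72.1 and 139 CPM in wtSRCAP control and 59.0 and 161 after IAA, and 85.4 and 150 CPM in cdSRCAP control and 104 and 178 after IAA. Rnf2 had 68.1 and 111 CPM in wtSRCAP control, 50.5 and 132 after IAA, and 61.2 and 119 in cdSRCAP control and 99.2 and 140 after IAA. The groups of both genes overlap throughout, and the interval for Eed in wtSRCAP cells ran from -1.07 to 1.19.

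Phf19 had 25.8 and 14.0 CPM in wtSRCAP control and 48.2 and 21.9 after IAA, a log2 fold change of 0.81 (95% interval -0.09 to 1.72, adjusted p = 0.708). In cdSRCAP cells it had 12.9 and 11.2 CPM in the control and 25.2 and 19.7 after IAA, a log2 fold change of 0.90 (-0.01 to 1.81, adjusted p = 0.886). The groups overlap in wtSRCAP but not in cdSRCAP cells. Within each replicate number, the treated library lay above its control in both lines. In the fit with the replicate block Phf19 rose by 0.78 in wtSRCAP (adjusted p = 0.0432 from edgeR) and by 0.87 in cdSRCAP cells (adjusted p = 0.0394). The difference between these responses was 0.08 (-1.19 to 1.36) without the block.

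Ring1 was the member with the smallest unadjusted p in exons of cdSRCAP cells, with 21.3 and 13.9 CPM in the control and 10.98 and 9.19 after IAA. The treated libraries lay below both controls, with a log2 fold change of -0.80 (SE 0.30, unadjusted p = 0.0252, adjusted p = 0.811). In wtSRCAP cells its log2 fold change was -0.17 (-0.85 to 0.51), and the difference between the lines was -0.63 (-1.59 to 0.32, unadjusted p = 0.170, adjusted p = 1.00).

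Jarid2 had 1063 and 1267 CPM in wtSRCAP control and 1409 and 1578 after IAA, and 1198 and 1321 CPM in cdSRCAP control and 1421 and 1567 after IAA. In both lines the treated libraries lay above the controls. The log2 fold changes were 0.36 (-0.12 to 0.84) and 0.25 (-0.23 to 0.73), and their difference was -0.11 (-0.79 to 0.57). Suz12 and Pcgf6 likewise did not overlap between control and IAA in either line, and the share of all genes without overlap was not computed. Their log2 fold changes were 0.11 and 0.22 in wtSRCAP and 0.30 and 0.30 in cdSRCAP cells, with adjusted p of 0.885 or more from edgeR. Ezh2, Mtf2 and Cbx7 had 0.00, 0.07 and 0.22 in wtSRCAP and 0.28, 0.24 and 0.11 in cdSRCAP cells. Over all members the median was 0.09 in wtSRCAP and 0.27 in cdSRCAP cells, against -0.02 and 0.02 over all genes.

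**Figure D5:**
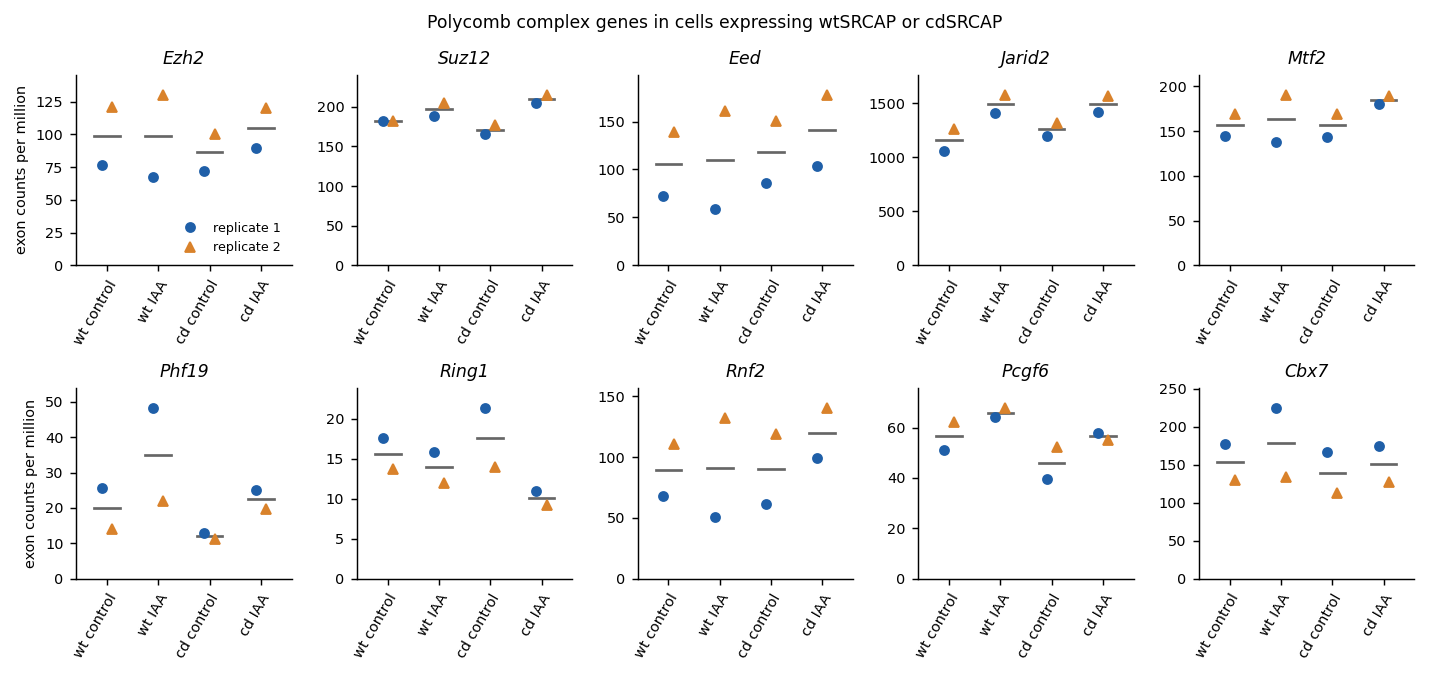
Exon CPM of the 10 genes in cells expressing wtSRCAP (wt) or cdSRCAP (cd), in the control and after 4 h of IAA, with a circle for replicate 1, a triangle for replicate 2 and a bar for their mean. Eed, Ezh2 and Rnf2 show wide gaps between replicates, while Jarid2, Suz12 and Pcgf6 lie higher after IAA in both lines.

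The intron columns differ in content between tables, which limits their use. Genes annotated as 1 exon have no intron, yet in SYAT cells 51.9% to 52.2% of 1302 such genes, each counted 20 times or more on exons in all libraries, had intron counts. In EG1 these were 46.0% to 46.2% of 1993 genes, but 0.0502% to 0.100% in LG1, 0.0537% of 1862 in CGR8 cells and 0.0935% of 1069 in wtSRCAP and cdSRCAP cells. The SYAT and EG1 columns thus hold exonic reads too. Mtf2 had 0 intron counts in all 4 CGR8 libraries and Ring1 at most 0.4 CPM there, although both had exon reads, so 8 members were tested in CGR8 introns and 9 (not Ring1) in wtSRCAP and cdSRCAP introns.

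In SYAT introns no member was called at any time (0% of 14719 genes at 2 and 4 h, 0.0136% at 6 h and 0.00679% at 8 h). None had an unadjusted p under 0.05, as 5.13%, 9.5%, 14.5% and 13.5% of all genes did at 2, 4, 6 and 8 h. Jarid2 had 1187 and 1299 CPM in the control columns and 1116 and 2371 after 6 h, with a log2 fold change of 0.49 (95% interval -0.35 to 1.33; -0.16 without replicate 2), and -0.11 at 4 h and 0.09 at 8 h. With replicate 2 as the only 6 h library, Phf19 had 0.94. In CGR8 introns no member was called (0.022% of 13634 genes were) and none had an unadjusted p under 0.05 (5.24% of genes did), and Jarid2 had 0.25 (-0.03 to 0.52).

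In LG1 introns Jarid2 had 1248 and 1167 CPM in the control and 3709 and 1267 after IAA, so that replicate 1 alone stood out. Its log2 fold change was 1.04 (95% interval -0.04 to 2.12, adjusted p = 1.00). Phf19 had 3.0 and 4.8 CPM in the control and 7.3 and 6.9 after IAA (0.87, unadjusted p = 0.0315, adjusted p = 1.00), and passed the rule for sorted cells, by which 1.24% of 17441 genes were higher and 2.7% lower. In EG1 introns Jarid2 and Phf19 had -0.23 and 0.16, and no member passed that rule, by which 0.39% were higher and 1.89% lower. By the rule with an adjusted p, no member was called after IAA in either phase, where 0.00573% of all genes were in EG1 and 0% in LG1. Between the controls of LG1 and EG1, Ring1 (-6.35) and Phf19 (-1.08) were called, as were 59% of all genes, but these columns hold different kinds of reads and their difference cannot be read as expression.

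In wtSRCAP introns Rnf2 had 158 and 174 CPM in the control and 251 and 233 after IAA, a log2 fold change of 0.54 (95% interval 0.23 to 0.86, unadjusted p = 0.00358, adjusted p = 0.176). Cbx7 had 116 and 118 CPM in the control and 204 and 133 after IAA (0.52, adjusted p = 0.333). For both genes the treated libraries lay above the controls, and neither was called, by a rule that 0.299% of 12702 genes passed. At an unadjusted p under 0.05 they were 2 of the 9 members tested, against 12.4% of all genes. With the replicate block Rnf2 was called in wtSRCAP introns (0.54, adjusted p = 0.0370). In cdSRCAP introns Rnf2 had 202 and 220 CPM in the control and 245 and 261 after IAA, and no member was called (0.236% of genes were) or had an unadjusted p under 0.05 (11.3% did). Between the lines no member was called in introns, in the controls (0.102% of genes) or after IAA (0.0157%). In the controls, Rnf2 alone had an unadjusted p under 0.05 (7.07% of genes did), with a log2 fold change of 0.35 in cdSRCAP against wtSRCAP (0.03 to 0.66, unadjusted p = 0.0339, adjusted p = 0.645). Eed introns had 367 and 339 CPM in cdSRCAP after IAA against 201 and 252 in wtSRCAP after IAA, a log2 fold change of 0.63 (0.23 to 1.04, adjusted p = 0.316). It was the only 1 of the 9 members with an unadjusted p under 0.05 in that comparison, against 10.2% of all genes.

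The other Polycomb genes were described with 40 further subunits and partners, all of which were tested in exons. In the SYAT time course none of the 40 was called at any time, and their median log2 fold changes were 0.01, 0.01, 0.00 and 0.06 at 2, 4, 6 and 8 h. At an unadjusted p under 0.05 there were 4 of 40 above 0 at each time, against 1.37%, 3.09%, 7.93% and 5.13% of all genes, and 0, 1, 1 and 1 below 0, against 2.55%, 6%, 8.21% and 8.44%. At 6 h the median was -0.13 without replicate 1 and 0.07 without replicate 2. Kdm6b, which encodes an H3K27 demethylase, had 125 ± 2.43 CPM in the control (SD, n = 2) and 158 ± 3.15, 179 ± 0.341 and 168 ± 8.29 CPM after 4, 6 and 8 h. Its log2 fold changes were 0.34, 0.52 and 0.43, and the adjusted p at 6 h was 0.0744, above the threshold. Kdm2b, which brings a variant PRC1 to CpG islands, had 0.67 at 6 h (adjusted p = 0.155), with 129 and 133 CPM in the control and 157 and 259 CPM after IAA. Its value was 0.27 without replicate 2 at 6 h and 0.99 without replicate 1, whereas that of Kdm6b was 0.53 with either one left out. Foxk2, a partner of the PR-DUB deubiquitinase, had -0.49 at 4 h (adjusted p = 0.4), and Kdm6a, Bcor and Pcgf2 had 0.34, 0.34 and 0.30 at 2 h (adjusted p = 1.00 each).

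In CGR8 cells none of the 40 was called, 3 lay below 0 at an unadjusted p under 0.05 (4.12% of all genes did) and none above (5.04%), and the median was -0.05. The gene of this list with the smallest p was Phc2, a canonical PRC1 subunit, at -0.42 (adjusted p = 0.540). In EG1, Pcgf1 had -0.34 and Phc3 -0.29 after IAA, both with an adjusted p of 1.00. Epop, which binds PRC2 and elongin, had 228 ± 40.0 CPM in wtSRCAP control and 390 ± 120 after IAA (0.78, adjusted p = 0.642), and 389 ± 40.9 in cdSRCAP control (0.77 against wtSRCAP control, adjusted p = 1.00). Bcorl1 had 0.74 between both IAA groups (adjusted p = 0.951), and Kdm6b 0.56 in cdSRCAP cells (adjusted p = 0.788).

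Polycomb target genes are silent or low in mESCs, and 14 of 22 listed genes had enough exon counts to be tested in the SYAT time course, a filter that a gene can pass through its highest group alone. None was called. Their median log2 fold changes were 0.46, 0.73, 0.76 and 0.63 at 2, 4, 6 and 8 h, with 12, 13, 13 and 13 of 14 above 0. At an unadjusted p under 0.05 there were 1, 3, 4 and 2 of 14 above 0, beside the 1.37%, 3.09%, 7.93% and 5.13% of all genes. At 6 h the median was 1.17 over 18 tested without replicate 1 and 0.74 over 17 without replicate 2. Gata6, an endoderm factor, had 0.460 ± 0.0658 CPM in the control and 1.44 ± 0.480 and 1.48 ± 0.0560 CPM after 6 and 8 h (1.64 and 1.68, adjusted p = 0.130 and 0.136). At 6 h it had 1.95 without replicate 1 and 1.26 without replicate 2. Eomes, a mesendoderm factor, had 0.84 at 4 h (adjusted p = 0.323), and Pax6, a neural factor, 0.90 at 8 h (adjusted p = 0.265). The 6 extra-embryonic endoderm markers, of which Gata4, Gata6 and Sox17 are also on the target list, had medians of 0.28, 0.30, 0.27 and 0.39 and no called gene. They summed to 12.9 to 16.1 CPM in the control and to 15.7 to 18.8 CPM after IAA. The 6 fibroblast or feeder markers summed to 21.6 to 26.6 CPM in the control and 22.4 to 38.7 after IAA, with 2 of them at 0 in some libraries. The part of either list in the values of the target genes was not tested.

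In CGR8 cells the target genes had a median of -0.13 with 4 of 14 above 0, against 50% of all genes. Pax6 had 0.54 there (adjusted p = 0.540), and Nanog, from the ES cell markers, 0.63 (adjusted p = 0.540). In EG1 and LG1 the medians of the target genes after IAA were 0.18 and 0.13. In wtSRCAP and cdSRCAP cells 10 target genes passed the count filter, which a gene can pass through its highest group alone. Their medians after IAA were 0.86 and 0.60 with 8 of 10 above 0 in each, against 47.7% and 52.3% of all genes. None was called. Medians and counts over genes filtered in this way are descriptions and no sign of a response. The fibroblast or feeder markers summed to 5.12 to 5.31 CPM in wtSRCAP control and 12.1 after IAA, and to 6.48 to 7.36 CPM in cdSRCAP control and 8.39 to 8.68 after IAA, with up to 3 of the 6 at 0 in a library. Their part in the values of the target genes was not tested. There Eomes had 1.17 and Pax6 0.82 in wtSRCAP cells (adjusted p = 0.642 each), and Pax6 had 0.86 and Gata4 -1.91 in cdSRCAP cells (adjusted p = 0.751 and 0.766). The ES cell markers had medians of 0.27 and 0.16 after IAA in these lines and 0.49 between cdSRCAP and wtSRCAP controls, where Klf4 had 0.80 and Gata4 1.76 (adjusted p = 1.00 each).

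Several members share annotated exon sequence with genes on the opposite strand. In GENCODE vM21 on GRCm38, Mtf2 (chromosome 5, 108065674 to 108109004, 21 merged exons) shares 395 exon bases with Tmed5, Rnf2 (chromosome 1, 151458004 to 151500955) 158 with Trmt1l, and Cbx7 (chromosome 15, 79915807 to 79971119) 100 with Apobec3. Ezh2 (chromosome 6, 47530139 to 47595341), Suz12 (chromosome 11, 79993106 to 80034123) and Eed (chromosome 7, 89954654 to 89980983) share 174, 178 and 261 with noncoding antisense genes. Jarid2 (chromosome 13, 44729474 to 44921643) and Phf19 (chromosome 2, 34893757 to 34914026) overlap other genes without shared exon bases, and Ring1 (chromosome 17, 34020792 to 34024680) and Pcgf6 (chromosome 19, 47033617 to 47050906) overlap none. The library kit keeps strand, but whether the counting used it is not given in the sources used here, so reads of these overlaps cannot be assigned with certainty.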

How the data were processed

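Nuclear RNA-seq of 30 libraries was used. Per their methods, the authors aligned reads to mm10 with STAR and ran featureCounts (annotation GENCODE vM25), which gave exon counts and, from the remaining gene body, intron counts. The deposited values are whole-number counts, 1 exon and 1 intron column for each library, not normalized. SAMtools 1.10 and Picard are named in the submitters' processing notes without a role. Deposited tables of the authors' comparisons (DESeq2 fold changes and p-values) were not used.

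Symbols came from GENCODE vM21 (55141 of 55401 identifiers match without version). Each table and kind of column was fitted alone in edgeR 4.0.16 (R 4.3.3) with filterByExpr (minimum count 10, minimum total 15), TMM, glmQLFit and glmQLFTest by condition, without a block. Benjamini-Hochberg adjustment of p-values ran over all genes tested, and intervals are 95%. Tests are two-sided. The scripts were tested on simulated data. Alternatives were DESeq2 1.42.0, RLE scaling, no filter, a replicate block, each library left out, and intron less exon columns. Tables and plots were made with pandas 2.3.3 and matplotlib 3.10.9. Exon deviations of same-numbered libraries from their group means correlated at 0.37 to 0.59 in sorted cells, over 6 pairs of groups. In wtSRCAP and cdSRCAP cells they correlated at 0.26 to 0.38, also over 6 pairs. In SYAT cells the range was 0.27 to 0.59 in pairs without the 6 h group and -0.04 to 0.06 in pairs with it. The blocked values of these exons are therefore given beside the results they change. This pairing is read from the data, not the labels. The precision of each value is limited by 2 replicates per condition. The p-values rest on the spread between replicate libraries, which all groups of a table share in the fit. For wtSRCAP and cdSRCAP cells they do not cover the spread between clones.

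The letters of the NRF1 and YY1 motifs were shortened by 1 and 2 after a first search. All members were named in the exon comparisons after IAA; in the others some stand only within the ranges and counts. Of the other listed genes, those past the call and the 3 with the smallest unadjusted p in exons of each comparison could be named. Members and lists were chosen with earlier results of these data known. Promoter sequences are from RefSeq (GRCm38.p6).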

Additional observations from a re-analysis of the deposited data

How the results depend on the processing

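No member was called in exons under DESeq2 or with RLE in place of TMM scaling in any of the 14 comparisons. Without the filter on low counts, 1 member (Jarid2) was called in SYAT exons at 6 h, and 1 (Eed, 0.67) in introns of cdSRCAP against wtSRCAP after IAA, where the cause was not tested. With libraries left out in turn, calls of members changed in SYAT exons and introns at 6 h, in CGR8 exons and between LG1 and EG1 control introns. Such a fit leaves 1 library in a group, so its calls are not counted here. Taking the exon columns off the EG1 intron columns was an alternative chosen after seeing the data. It called 1 member between LG1 and EG1 control introns, in place of 2.

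The labels state no pairing by replicate number. In SYAT exons the deviations of same-numbered libraries correlated at 0.27 to 0.59 in pairs of groups without the 6 h group. In pairs with the 6 h group they correlated at -0.04 to 0.06, and in CGR8 exons at 0.07. With a replicate block, 1 member was called in each of SYAT exons at 6 h (Jarid2, 0.58), CGR8 exons (Rnf2, 0.50), wtSRCAP exons after IAA (Phf19, 0.78), cdSRCAP exons after IAA (Phf19, 0.87) and wtSRCAP introns after IAA (Rnf2, 0.54), and 3 in place of 2 between LG1 and EG1 control introns. The block changed no other call of a member.

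Counts over all genes also depended on the method. In SYAT exons at 2, 4, 6 and 8 h, 0, 0, 13 and 1 genes were called, against 8, 123, 571 and 380 by DESeq2, 8, 88, 885 and 448 without the filter and 0, 76, 823 and 634 with the block. In CGR8 exons 2 were called, against 122, 386 and 500. After IAA, the exons of wtSRCAP cells gave 1 against 14, 20 and 612, and those of cdSRCAP cells 0 against 7, 10 and 345. Between the controls of these lines 0 genes were called against 22, 40 and 174, between their IAA groups 1 against 3, 44 and 269, and between LG1 and EG1 controls 0 against 0, 70 and 152. After IAA, EG1 exons gave 0 against 0, 3 and 2, and LG1 exons 0 against 0, 9 and 1. In introns, at 2, 4, 6 and 8 h, SYAT cells gave 0, 0, 2 and 1 against 59, 250, 513 and 466 by DESeq2, CGR8 cells 3 against 41, and wtSRCAP and cdSRCAP cells 38 and 30 against 185 and 154. Of 1200 log2 fold changes of members in exons under alternatives, 1010 kept direction and call, 178 changed sign without a call, and 12 became calls.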
